A study of Python bivittatus with 8 samples.

Results

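The step from 4 to 6 days after a meal was examined in python hearts, using left ventricle tissue of the Burmese python, Python bivittatus. These are the 2 regression times of the study, called 4DPF and 6DPF for days post-fed, and they were chosen by their labels. They hold 4 of the 8 libraries, 2 per group, and the other 4 came from fasted and 1DPF snakes. All were wild-type captive-bred pythons that had been fasted for 28 days. The fed groups then ate a rodent meal of 25% of their body weight and were killed 1, 4 or 6 days later. Poly-A RNA of snap-frozen left ventricle was sequenced. The labels do not state whether a group's libraries came from separate snakes, and they give 6 snakes for sequencing and proteomics. Replicates therefore count libraries, and p-values measure the spread between libraries, which may be technical.

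The python heart grows after a large meal and then shrinks back, and the design text takes 1DPF as growth, 4DPF as early regression and 6DPF as later regression. The series title ties the regression to FoxO1. In mammalian muscle, FoxO transcription factors are held out of the nucleus when insulin signalling through Akt is active, and when released they turn on genes of autophagy and of the ubiquitin-proteasome system. The count table lists genes by number and pairs no number with a name. The level of FoxO1 and of its targets, the markers of cardiac muscle and those of other cell types were therefore not analysed here, and the tissue label was not checked against markers. Gene groups are described by their course, abundance and length.

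Libraries held 40500773 and 38013128 counts at 4DPF and 42250755 and 38942637 at 6DPF, and 1 read was worth between 0.0222 and 0.0273 CPM (reads scaled to a common library size, with TMM factors). Of 21368 genes, 16986 had enough reads to be tested. Over the tested genes, the root mean square difference in log2 CPM between replicate libraries was 0.644 at 4DPF and 0.558 at 6DPF. A 6DPF and a 4DPF library differed by 0.581 and 0.604 in the pairs with equal replicate numbers and by 0.742 and 0.68 in the others.

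The edgeR test on all 8 libraries separated few genes between early and later regression, in both directions. Of the 16986 genes, 15 (0.0883%) changed at an edgeR quasi-likelihood adjusted p under 0.05, 9 higher (0.053%) and 6 lower (0.0353%) at 6DPF. DESeq2, run on the same 8 libraries, called 731 of the 14441 genes to which it gave an adjusted p (5.06%), 361 higher (2.5%) and 370 lower (2.56%), including all 15. Most differences were small. The fitted log2 change lay within 0.5 of 0 in 77.2% of genes, its median was 0.0016, and its 5th and 95th percentiles were -0.79 and 0.83. A fitted change of at least 2-fold was found in 557 genes upward and 537 downward. These were mostly genes of low abundance, with a median mean log2 CPM of 0.11 and -0.15, against 3.78 over all tested genes. Of them, 317 and 254 had an edgeR unadjusted p under 0.05, against 1314 (7.74%) higher and 1373 (8.08%) lower over all tested genes. They were chosen on the same fitted change that enters the p-value, so a larger share of low p-values follows in part from the choice. The median standard error over all tested genes was 0.22. The number of calls depended on single libraries. Without 6DPF replicate 1 or 2, edgeR called 0 genes, although 2124 and 2429 had an unadjusted p under 0.05. Calls were also fewer without a 4DPF, a fasted or a 1DPF library. Without a fasted or a 1DPF library, they were not all among the 15 genes.

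**Figure D1:**
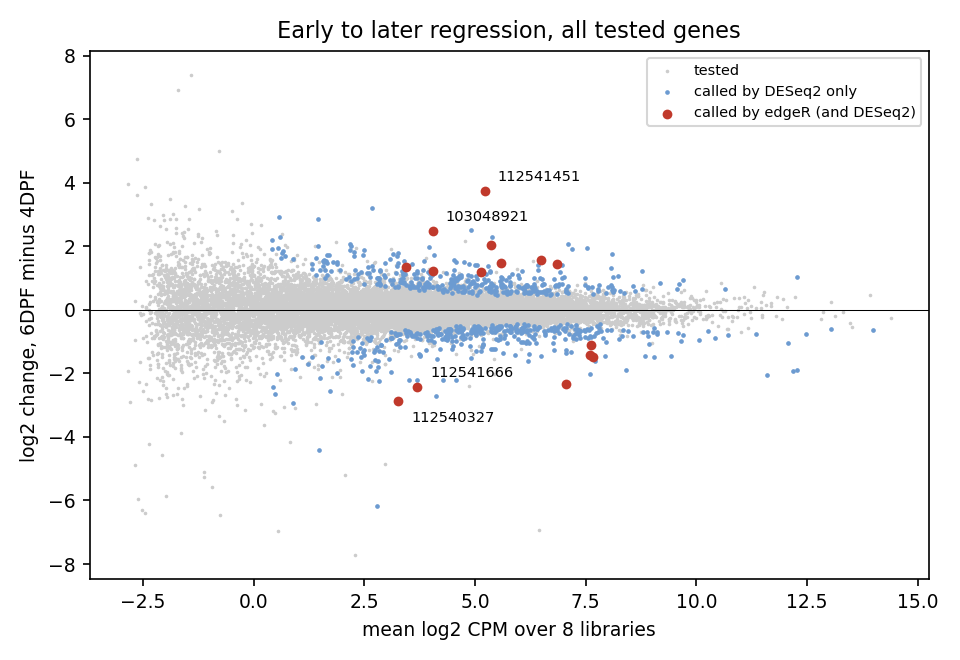
Each point is 1 of 16986 tested genes, placed by its mean log2 CPM over the 8 libraries and by its fitted log2 change, 6DPF minus 4DPF. The 15 genes called by edgeR are red, the further genes called by DESeq2 are blue, and the 4 genes described by number are labelled; red points lie on both sides of 0 with changes between -2.86 and 3.72.

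A second view used no model. Both 6DPF libraries lay above both 4DPF libraries in 3769 genes (22.2%) and below them in 3955 (23.3%). With 2 libraries a side, such separation also arises without a group difference, and how often was not tested. At least a 2-fold gap between the nearest libraries of the groups was found in 117 genes upward (0.689%) and 97 downward (0.571%). Of these genes, 79 of the 117 and 48 of the 97 lay in the least abundant of 4 equal bins of the tested genes. The 9 higher genes called by edgeR were all among the 117, and 5 of its 6 lower genes were among the 97.

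Among the called genes, the largest rise was that of gene 112541451, which is 4990 bases long in the deposited table. It stood at 2.49 and 5.99 CPM in the 4DPF libraries and at 62.8 and 48.8 CPM in the 6DPF libraries. The 4DPF values rest on 100 and 219 reads, and the lower 6DPF library was 8.10-fold above the higher 4DPF library on the log2 CPM scale with a prior count of 2. The log2 change, 3.72 with an SE of 0.37, had an edgeR adjusted p of 0.0312. In the other groups it was at 82.3 and 85.7 CPM in fasted ventricle and at 5.87 and 4.89 CPM at 1DPF. The 4DPF libraries thus lay close to the 1DPF ones, and the 6DPF libraries lay between those and the fasted ones.

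Gene 103048921, of 2573 bases, had the second largest rise. Its 4DPF libraries held 4.05 and 4.87 CPM and its 6DPF libraries 24.5 and 25.3 CPM. The rise was 2.48 on the log2 scale with an SE of 0.26 (edgeR adjusted p = 0.0312). It had been at 44.2 and 27.1 CPM in fasted ventricle and at 1.67 and 1.24 CPM at 1DPF, so its level was lowest in the growth libraries and the 6DPF libraries stood just below the lower fasted one.

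The steepest fall among the called genes was that of gene 112540327, of 5271 bases. The 4DPF libraries held 20.3 and 21.9 CPM of it and the 6DPF libraries 3.06 and 2.73 CPM. The log2 change was -2.86 with an SE of 0.27 (edgeR adjusted p = 0.0312). Fasted libraries held 6.32 and 4.72 CPM and 1DPF libraries 11.02 and 6.89 CPM, so both 4DPF libraries were above all 6 others and both 6DPF libraries below them.

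Gene 112541666, of 5722 bases, fell from 27.9 and 21.2 CPM to 4.69 and 4.37 CPM, by -2.44 on the log2 scale with an SE of 0.27 (edgeR adjusted p = 0.0363). It was at 6.44 and 3.87 CPM in fasted ventricle and at 17.6 ± 1.94 CPM (SD, n = 2) at 1DPF. Its level was again highest in the 4DPF libraries, and at 6DPF it lay within the range of the fasted ones.

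None of these 4 genes stayed below the adjusted p of 0.05 in every alternative. Of 17 alternatives, the 4 genes in the order given were called in 10, 7, 8 and 6. Each kept its sign in all 17, which the lack of overlap between its 4DPF and 6DPF libraries made all but certain. Their highest adjusted p was between 0.166 and 0.245, each time with 1 of the 4 regression libraries left out.

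Larger fitted falls than these were not called, and they mostly came from 1 library. Of the 10 genes with the largest fitted changes among those with a mean of at least 0 log2 CPM, a choice made after the values were seen, 9 were lower at 6DPF and 1, gene 112541451, was called by edgeR. In 7 of the 10 the 4DPF libraries were at least 4-fold apart (after adding 0.1 CPM), each time with replicate 2 the higher. The most abundant of the 7 was at 0.845 and 642 CPM in the 4DPF libraries and at 2.66 CPM in both 6DPF libraries, a fitted log2 change of -6.92 (edgeR adjusted p = 0.264). It was also high in fasted replicate 2, at 42.9 CPM, against 0.399 CPM in fasted replicate 1 and at most 1.70 CPM at 1DPF.

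Courses differed among the other 11 called genes. Among all 9 that rose, the mean level at 4DPF ran from 4.24 to 52.0 CPM and at 6DPF from 19.2 to 154 CPM, and the fold between the means from 2.29 to 13.2. The mean was highest at 6DPF in 6 of the 9 and in fasted ventricle in 3. For 7 of the 9 the mean was lowest at 1DPF and for the other 2 at 4DPF. One of those 2, the sixth largest rise, had 36.9 and 38.4 CPM in the 4DPF libraries and 100.4 and 105 CPM in the 6DPF ones. Its fasted libraries held 203 and 239 CPM and its 1DPF libraries 105 and 91.5 CPM, so the 6DPF libraries were near the 1DPF ones and under the fasted ones.

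In 3 of the 9, picked out after their values were seen, the levels before 6DPF lay close together. The fifth largest rise stood between 26.3 and 36.8 CPM in the 6 fasted, 1DPF and 4DPF libraries, and the 6DPF libraries held 101 and 90.4 CPM. The seventh lay between 6.66 and 9.94 CPM in those 6 libraries, against 19.1 and 19.3 CPM in the 6DPF pair. The eighth lay between 11.02 and 13.6 CPM, against 32.3 and 28.0 CPM. In each, both 6DPF libraries were above all 6 others. The same held for the third and ninth largest rises. Their lower 6DPF libraries held 72.2 and 59.9 CPM, against highest values elsewhere of 65.85 and 43.4 CPM.

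Among the 6 that fell, the mean at 4DPF ran from 21.1 to 256 CPM and at 6DPF from 2.90 to 91.3 CPM, with a fold between the means of 2.14 to 7.27. The 4 without a printed number all had their highest mean at 1DPF. The third largest fall took its gene from 173 and 240 CPM in the 4DPF libraries to 38.5 and 43.6 CPM in the 6DPF ones, with fasted libraries at 72.1 and 59.5 CPM and 1DPF libraries at 270 and 162 CPM. The 1DPF and 4DPF libraries of that gene overlapped, and both 6DPF libraries were under the fasted ones. For the fourth the 4DPF libraries held 263 and 249 CPM and the 6DPF libraries 100.4 and 82.2 CPM. Both 6DPF libraries stood above the fasted ones, at 43.3 and 41.7 CPM, and the 1DPF libraries were the highest at 440 and 417 CPM. The means at 6DPF were the lowest of the 4 groups in 5 of the 6.

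**Figure D2:**
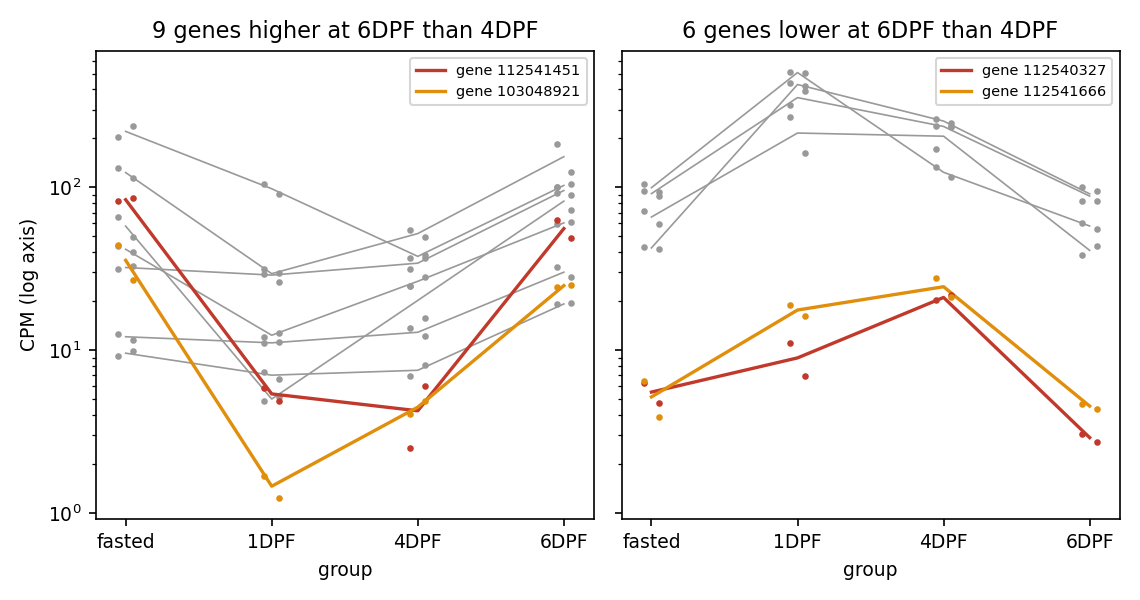
The 9 genes higher (left) and 6 genes lower (right) at 6DPF than 4DPF by edgeR are shown over the 4 groups. Points are CPM in single libraries on a log axis, 2 per group, and lines join the group means; the 4 genes described by number are in colour, and 7 of the 9 lines on the left have their lowest point at 1DPF.

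The later step was then set against the growth response, 1DPF against fasted. That comparison shares none of its libraries with 6DPF against 4DPF, although all 8 share the scaling and the dispersion estimates. Genes that were higher in growth tended to be lower at 6DPF than at 4DPF, and genes that were lower in growth tended to be higher. At 1DPF, edgeR called 1627 genes higher than fasted (9.58% of those tested) and 1641 lower (9.66%). Over the 1627 the median log2 difference between 6DPF and 4DPF was -0.37 (quartiles -0.59 and -0.20), over the 1641 it was 0.34 (0.16 and 0.58), and over all tested genes it was 0.0016 (-0.25 and 0.25). The medians were between -0.39 and -0.35 for the 1627 genes and between 0.33 and 0.35 for the 1641 in each of the 4 pairs of a 6DPF with a 4DPF library. These pairs share libraries and are not independent of each other. Over all tested genes, the log2 differences of the pairs with equal numbers had a Pearson correlation of 0.41. Those of the other pairs had one of -0.024. Over all 17 alternatives the medians of the 1627 and the 1641 genes ran from -0.43 to -0.30 and from 0.31 to 0.41.

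Counts gave the same split. Both 6DPF libraries lay below both 4DPF libraries in 1199 of the 1627 growth-raised genes (73.7%) and above them in 48 (2.95%). They lay above in 1104 of the 1641 growth-lowered genes (67.3%) and below in 46 (2.80%). Over all tested genes these shares were 23.3% below and 22.2% above. The edgeR test called 5 of the 1627 lower and 0 higher (697 and 8 at an unadjusted p under 0.05), and 6 of the 1641 higher and 0 lower (623 and 10). Over all tested genes an unadjusted p under 0.05 was found for 1373 lower (8.08%) and 1314 higher (7.74%). DESeq2 called 271 of the 1627 lower (16.7%) and 4 higher, and 240 of the 1641 higher (14.6%) and 1 lower, against 2.18% lower and 2.13% higher among all 16986 genes.

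The difference between 4DPF and 6DPF was larger where the growth response had been larger. In the 10385 genes with a mean of at least 3 log2 CPM, those at least 4-fold down in growth (77 genes) had a median log2 difference of 0.96 between 6DPF and 4DPF. Those 2- to 4-fold down (429 genes) had one of 0.47 and those with a log2 change of -1 to -0.5 (1198 genes) one of 0.25. The 6903 genes within 0.5 of no growth change had a median of -0.0071. On the other side the medians were -0.28 for a growth change of 0.5 to 1 (1290 genes), -0.49 for 1 to 2 (425 genes) and -0.89 for at least 2 (63 genes). Across these 10385 genes the fitted log2 changes of the 2 steps had a Pearson correlation of -0.64 and a Spearman correlation of -0.64, and over all 16986 tested genes -0.46 and -0.50. The genes share libraries and are not independent replicates. In the bins at least 4-fold up or down in growth, 49 of 63 genes (77.8%) lay lower and 61 of 77 (79.2%) higher at 6DPF with no overlap. In each, 0 genes lay on the other side. Over the 10385 genes the shares were 26.0% lower and 22.6% higher. Without the limit on abundance, 3 of the 155 genes called at least 4-fold higher in growth lay higher at 6DPF with no overlap. Of the 169 called at least 4-fold lower, 3 lay lower. Over all tested genes 22.2% lay higher and 23.3% lower.

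**Figure D3:**
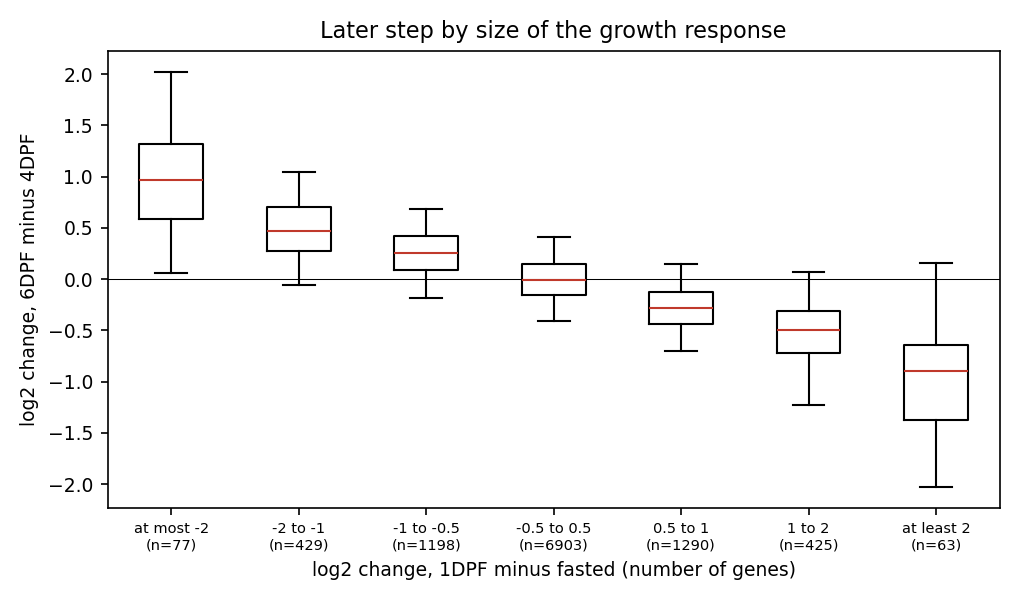
Tested genes with a mean of at least 3 log2 CPM are binned by their log2 change between fasted and 1DPF (horizontal), and the vertical axis gives their log2 change from 4DPF to 6DPF. Boxes are quartiles, red lines medians and whiskers the 5th and 95th percentiles over genes; the medians go from 0.96 in the most growth-lowered bin to -0.89 in the most growth-raised bin.

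The share of reads moved with these groups of genes. The 1627 growth-raised genes held 11.2% and 10.6% of the reads in the 4DPF libraries and 8.20% and 7.72% in the 6DPF libraries, next to 7.58% and 6.84% in fasted and 15.1% and 15.7% in 1DPF libraries. The 1641 growth-lowered genes held 10.2% and 9.99% at 4DPF and 13.9% and 13.8% at 6DPF, next to 15.7% and 16.5% in fasted and 8.57% and 8.40% in 1DPF libraries. In both cases the 4DPF and 6DPF libraries did not overlap, and the 6DPF libraries lay between the 4DPF and the fasted ones. The fasted and 1DPF shares come from the libraries that chose the genes and are a description only. In bulk tissue, fewer cells of a type and less RNA per cell cannot be told apart.

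**Figure D4:**
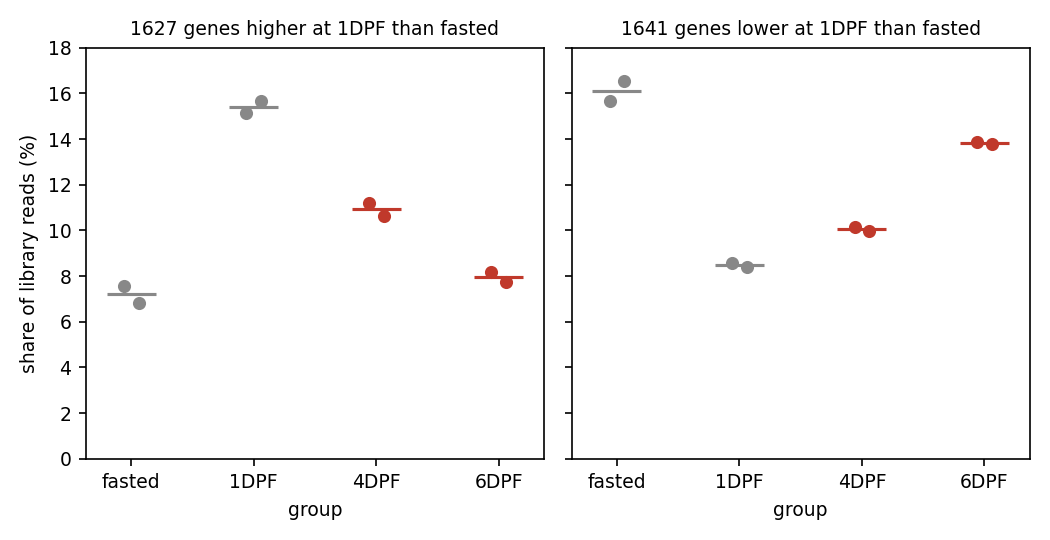
The share of a library's reads, in percent, held by the 1627 genes called higher (left) and the 1641 called lower (right) at 1DPF than fasted. Points are libraries and bars group means. The 4DPF and 6DPF libraries (red) were not in the comparison that chose the genes, but they shared its scaling and dispersion estimates. From 4DPF to 6DPF the shares went from 11.2% and 10.6% to 8.20% and 7.72% on the left. On the right they went from 10.2% and 9.99% to 13.9% and 13.8%.

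A smaller set of genes was called by DESeq2 between 4DPF and 6DPF with no edgeR call in growth. The 2 tests were unlike in strictness, as between 4DPF and 6DPF DESeq2 called 731 genes and edgeR 15. A gene not called in growth may therefore still have changed there. Over all 16986 tested genes, 9.66% were called lower at 1DPF than fasted, 9.58% were called higher, and 13718 genes were not called. Of the 361 genes that DESeq2 called higher at 6DPF, 240 (66.5%) were lower at 1DPF than fasted, 4 were higher and 117 were not called at 1DPF. The median level of the 117 was 14.1 CPM in the fasted group, 11.1 in the 1DPF group, 11.9 in the 4DPF group and 23.7 in the 6DPF group, and they include the 3 genes described above that edgeR called. Of the 370 genes that DESeq2 called lower, 271 (73.2%) were higher at 1DPF, 1 was lower and 98 were not called. For the 98 the medians of these groups were 23.0, 27.9, 37.5 and 21.3 CPM, highest at 4DPF. The 4DPF and 6DPF medians follow from how these genes were chosen. The fasted and 1DPF libraries served to leave out genes called between them, and they also shared the scaling and dispersion estimates. The median log2 change from fasted to 1DPF was still -0.26 in the 117 and 0.32 in the 98. Of the 361 and 370 genes, 88 and 70 lay within 0.5 log2 of no growth change. Among the 10385 tested genes with a mean of at least 3 log2 CPM, 6903 lay in that range. Leaving out 4DPF replicate 1 or 2 brought the 731 calls to 319 and 487, and leaving out 6DPF replicate 1 or 2 to 351 and 482. All 731 log2 changes kept their sign in these fits, which was all but fixed by the choice of genes. The 4DPF and 6DPF libraries did not overlap in all 361 higher genes and in 369 of the 370 lower genes.

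The most abundant transcripts took a smaller share of reads at 6DPF than at 4DPF. The 10 genes with the highest mean CPM over the 4 regression libraries held 12.8% and 13.2% of reads at 4DPF and 10.9% and 11.5% at 6DPF. They held 11.75% and 11.94% in fasted and 11.66% and 10.93% in 1DPF libraries. Each library's own 10 most abundant genes held 12.9% and 13.6% of reads at 4DPF and 11% and 11.6% at 6DPF. The same measure gave 12% and 12.9% in fasted and 12.1% and 12% in 1DPF libraries. The 10 genes were chosen on the regression libraries, which lowers their fasted and 1DPF shares, so those shares are a description only. In 7 of the 10 both 6DPF libraries were below both 4DPF libraries and in 1 above (23.3% and 22.2% of all genes), and their log2 differences lay between -0.64 and 0.47. Of the 50 most abundant, edgeR called 0 (10 lower and 3 higher at an unadjusted p under 0.05), and DESeq2 called 8 lower and 1 higher. The shares over all tested genes were 8.08% lower and 7.74% higher at that unadjusted p, and 2.18% and 2.13% by DESeq2. In 5 of the 50 the fitted difference was at least 2-fold, 4 of them downward. One of these stood at 7703 and 11620 CPM in the 4DPF libraries and 1862 and 3322 CPM in the 6DPF ones. It differed by -1.90 on the log2 scale with an SE of 0.44 (edgeR adjusted p = 0.127, DESeq2 adjusted p = 4.61e-05). Its fasted libraries, at 5476 and 2458 CPM, were themselves more than 2-fold apart. Another had 5464 and 7536 CPM in the 4DPF libraries, 1240 and 1876 CPM in the 6DPF ones and 3054 and 1409 CPM in the fasted ones. Its 6DPF level differed from 4DPF by -2.06 on the log2 scale with an SE of 0.39 (edgeR adjusted p = 0.108, DESeq2 adjusted p = 3.30e-07). The 1 upward gene had 2246 and 2407 CPM in the 4DPF libraries and 4293 and 5256 CPM in the 6DPF ones, and differed by 1.04 on that scale with an SE of 0.27 (edgeR adjusted p = 0.144, DESeq2 adjusted p = 0.00142). These 5 genes were picked out after their values were seen.

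Median differences by abundance and by length were small. The bins leaned to different sides, and the share of genes lying lower with no overlap differed most between the abundance bins. With the tested genes in 4 equal bins by abundance, the median log2 difference ran from -0.0098 to 0.037, and in 4 equal bins by length from -0.024 to 0.028. In the least abundant bin 892 genes lay higher at 6DPF with no overlap and 727 lower, and in the most abundant bin 965 and 1153. By length, the second shortest bin had 908 (21.4%) higher and 1084 (25.5%) lower, and the longest 1009 (23.8%) and 876 (20.6%). Over all tested genes the shares were 22.2% higher and 23.3% lower. The direction of these differences between bins was not tested. Median absolute differences were 0.44 in the least abundant bin and 0.19 in the most abundant. The 9 genes called higher by edgeR were 868 to 8209 bases long and the 6 called lower 1867 to 13066. Per kilobase of length, mean levels at 6DPF were 9.68 to 35.5 CPM in the 9 and 0.55 to 48.9 CPM in the 6. No gene was silent at 6DPF and clearly present at 4DPF, as 0 genes had at least 10 reads in both 4DPF libraries and no read in either 6DPF library. In the opposite direction 2 genes had no read at 4DPF and at least 10 in both 6DPF libraries. A count of 0 allows up to 3 reads per library, which is at most 0.082 CPM in a 4DPF library.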

How the data were processed

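Unnormalised counts for each gene in 8 libraries, with gene lengths in bases, were deposited by the authors in 1 table. The submitters' processing notes name featureCounts, HISAT2 2.1.0, Trimmomatic 0.36, DESeq2 1.36.0 and SAMtools 1.8. The sources used here do not give the genome build, annotation, strand setting or treatment of multi-mapping reads, so counts of overlapping, antisense and near-identical genes are uncertain.

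All 8 libraries entered 1 quasi-likelihood fit on group alone (edgeR 4.0.16 in R 4.3.3), with TMM factors (0.9623 to 1.066) and filterByExpr (minimum count 10, total 15). It left 4 residual degrees of freedom. Adjusted p is Benjamini-Hochberg over all tested genes, two-sided, and calls are under 0.05. CPM uses TMM-scaled totals, and log2 CPM a prior count of 2. Replicate libraries of 4DPF and of 6DPF were not duplicates of each other (chi-square of their counts 61.7 and 67.6 per degree of freedom). In simulated counts for 6DPF against 4DPF, with 16788 genes tested, 1.49%, 32.8% and 84.8% of 1.5-, 2- and 4-fold changes were recovered. These were set in 67, 67 and 66 genes with a mean above 1 CPM, and in the 6DPF group alone. Recovery of less abundant genes was not simulated. In this single draw all other genes had the same mean in every group, and no deviation was shared between libraries of equal number. Recovery in the real comparison may therefore differ. Of 89 calls, 10 were false, a larger share than the nominal 0.05.

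The groups compared, the growth-response lists and the tests were chosen with earlier results of these data known. Planned pathway and marker lists were not analysed here, since no gene number could be paired with a name. By the fixed rule, the numbers printed are the 2 called genes that rose and the 2 that fell most among those averaging at least 3 log2 CPM. Alternatives were DESeq2 1.42.0, limma 3.58.1 with voom, other scalings and filters, the replicate number as a block, the 4 regression libraries alone, and each library left out.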

Additional observations from a re-analysis of the deposited data

How the results depend on the processing

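The 15 calls by edgeR became 731 with DESeq2, 33 without a filter on low counts, 0 with library totals alone, 0 on the 4DPF and 6DPF libraries alone (2241 genes at an unadjusted p under 0.05) and between 0 and 11 with 1 library left out. With a fasted or a 1DPF library left out, the calls were not all among the 15. Limma voom called 18, of which 14 were among the 15, and RLE factors or a mean of at least 1 CPM called 15 and 17. Higher genes were 60% of the calls, and this share ran from 0% to 100% with 1 library left out, where a single gene was called. Library totals alone put the median of all genes at 0.072, against 0.0016 with TMM factors, and the adjusted p of the 15 genes from 0.0514 to 0.0575 (unadjusted p under 0.05 in 2752 genes). Calls by DESeq2 ran from 319 to 784 with 1 library left out, were 497 on the 4 regression libraries alone and 804 with the replicate number as a block, alternatives added after the data were seen. All 15 kept their sign in all 17 alternatives, which was all but fixed, since their 4DPF and 6DPF libraries did not overlap. The planned summaries of gene lists were not run, as no gene number could be paired with a name. For these differences the cause was not tested.

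Each group's libraries carry the numbers 1 and 2, with no statement that equal numbers belong together. Across genes, the replicate deviations in 4DPF had a correlation of 0.43 with those in 6DPF. For the other pairs of groups the correlation ran from -0.34 (1DPF with 4DPF) to 0.086 (fasted with 4DPF). Under a replicate block edgeR called 0 genes on all 8 libraries (2659 at an unadjusted p under 0.05) and 1881 on the 4 regression libraries alone, 977 higher and 904 lower and including the 15. That last fit has 1 residual degree of freedom. The growth-response medians, with lists kept as chosen, were -0.366 and 0.334 with the block on all 8 libraries.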
